A study of Mus musculus with 9 samples.

Results

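Interferon-stimulated genes were followed in mouse retina as a set of 44 genes, chosen by symbol from a list of known members. The choice was made with earlier results of these data known. Each symbol matched 1 row among the 22337 genes of the deposited table. The retinas were those of WT mice (C57BL/6J, not treated), of rd10 mice given NS (normal saline, the negative control), and of rd10 littermates given MSC-EVs, extracellular vesicles from mesenchymal stem cells of human umbilical cord. All were collected at postnatal day 28 (P28), with 3 RNA-seq libraries per group. Every rd10 mouse carried the missense mutation in the rod phosphodiesterase gene Pde6b that makes its rods degenerate, and 1 µl of NS or MSC-EVs was injected into the vitreous of both eyes at P14 and again at P21. WT mice were not injected and came from another supplier, so origin, injection and genotype cannot be told apart in a comparison with WT. The sources used here do not say how many animals each library held or their sex.

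Interferons are secreted when a cell senses foreign or misplaced nucleic acid. Type I interferon binds the receptor made of Ifnar1 and Ifnar2, and the kinases Jak1 and Tyk2 then activate STAT proteins, among them Stat2, which join Irf9 to form the factor ISGF3. ISGF3 binds the interferon-stimulated response element (ISRE) in promoters, and type II interferon acts instead on the gamma-activated sequence (GAS). The genes switched on encode proteins that detect viral RNA and DNA, block translation, degrade nucleic acid, tag proteins with ISG15 or attack membranes of intracellular pathogens, and in neural tissue microglia are known for a strong response of this kind.

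The libraries held between 19491717 and 62532343 estimated counts, and MSC-EVs replicate 3 was the deepest. MSC-EVs replicates 1 and 2 held 183 and 189 CPM (counts scaled to a common library size) summed over 4 Y-linked genes. The other 7 libraries held between 0.237 and 0.501 CPM. By these genes, male tissue was seen in MSC-EVs replicates 1 and 2 only. All 9 rod marker genes were present in every library, and all 9 had a lower level in NS-treated rd10 than in WT at an adjusted p under 0.05, as their summed levels of 72540 to 77970 CPM in WT and 14520 to 20890 CPM in NS-treated rd10 show. Replicates of a group are separate libraries by their labels, and p-values measure the spread between them, which may be technical.

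Promoter windows of 34 of the 44 genes were found in the RefSeq promoter table (GRCm38.p6, 250 bases before to 50 bases after the start site). Mx1, Mx2, Dhx58, Ifi204, Oas2, Parp9, Parp14, Rtp4, Usp18 and Ifi27 had no entry. The ISRE core was searched as the letters GAAANNGAAA, where N is any base, on both strands. It was found in 20 of the 34 genes, or 58.8%, and in 3.99% of all 27025 genes of the table. The GAS letters TTCNNNGAA, which read the same on both strands, were found in 10 of the 34 genes (29.4%) and in 9.55% of all genes. Of these promoters, 6 are printed to show where the element lies in genes of different roles; they belong to the first gene with a match in each of the first role groups that had one. They are written 5′ to 3′ on the strand of the gene, and the capitals mark the ISRE core, which appears as its reverse complement where it lies on the opposite strand.
Stat2 promoter, chr10:128270248-128270547, plus strand: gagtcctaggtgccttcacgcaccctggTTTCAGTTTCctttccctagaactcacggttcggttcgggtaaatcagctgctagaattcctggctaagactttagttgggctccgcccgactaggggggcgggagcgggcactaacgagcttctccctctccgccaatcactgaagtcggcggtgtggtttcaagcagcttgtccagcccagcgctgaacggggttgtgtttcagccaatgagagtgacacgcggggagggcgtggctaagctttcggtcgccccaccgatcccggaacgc
Ifit1 promoter, chr19:34640639-34640938, plus strand: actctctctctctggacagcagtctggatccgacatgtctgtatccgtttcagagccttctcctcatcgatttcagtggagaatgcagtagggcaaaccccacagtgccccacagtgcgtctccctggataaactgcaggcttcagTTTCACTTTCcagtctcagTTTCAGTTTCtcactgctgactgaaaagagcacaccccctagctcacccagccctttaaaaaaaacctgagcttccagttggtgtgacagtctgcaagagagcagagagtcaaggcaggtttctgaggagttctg
Oas1a promoter, chr5:120907476-120907775, minus strand: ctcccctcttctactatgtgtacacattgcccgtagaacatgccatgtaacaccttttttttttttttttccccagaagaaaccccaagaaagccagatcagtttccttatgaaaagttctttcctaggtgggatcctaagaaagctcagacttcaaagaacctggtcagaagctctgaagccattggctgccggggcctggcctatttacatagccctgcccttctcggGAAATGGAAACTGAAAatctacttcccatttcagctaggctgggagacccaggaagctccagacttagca
Isg15 promoter, chr4:156200769-156201068, minus strand: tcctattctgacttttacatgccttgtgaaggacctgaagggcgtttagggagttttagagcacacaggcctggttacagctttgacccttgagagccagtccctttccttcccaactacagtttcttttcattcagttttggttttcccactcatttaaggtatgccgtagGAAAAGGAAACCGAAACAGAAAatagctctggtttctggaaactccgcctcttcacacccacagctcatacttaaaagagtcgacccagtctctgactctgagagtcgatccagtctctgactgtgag
Ifih1 promoter, chr2:62646206-62646505, minus strand: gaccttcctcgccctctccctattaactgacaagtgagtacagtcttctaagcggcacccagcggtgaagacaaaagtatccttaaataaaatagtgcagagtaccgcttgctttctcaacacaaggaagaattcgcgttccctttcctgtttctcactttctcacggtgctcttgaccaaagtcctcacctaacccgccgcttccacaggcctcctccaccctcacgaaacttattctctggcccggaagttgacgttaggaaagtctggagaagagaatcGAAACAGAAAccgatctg
Ifi206 promoter, chr1:173491269-173491568, minus strand: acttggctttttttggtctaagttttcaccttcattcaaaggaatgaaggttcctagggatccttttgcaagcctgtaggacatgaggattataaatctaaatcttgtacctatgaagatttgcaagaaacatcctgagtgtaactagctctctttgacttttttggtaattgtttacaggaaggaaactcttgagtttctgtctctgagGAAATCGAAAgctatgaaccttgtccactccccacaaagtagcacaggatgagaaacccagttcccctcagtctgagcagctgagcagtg

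The element lay close to the RefSeq start site in most of these genes. Ifit1 held 2 matches centred at -99.5 and -80.5 bases from the start site, Isg15 held 3 overlapping matches between -73.5 and -61.5, and Oas1a held 2 overlapping matches at -15.5 and -9.5. The match of Ifih1 lay inside the transcribed part at 36.5, and that of Stat2 lay far upstream at -217.5. Among the 31 matches in members' promoter entries, 25.8% were centred 100 to 50 bases before the start site and 35.5% in the last 50 bases before it, beside 14.1% and 16.1% of the 1210 matches in all promoter entries. The 39 other interferon-stimulated genes with an entry held the core in 51.3%, and 1 of 12 microglia and macrophage markers held it. Overlapping matches were counted separately. A match is a run of letters, and no binding was measured here.

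**Figure D1:**
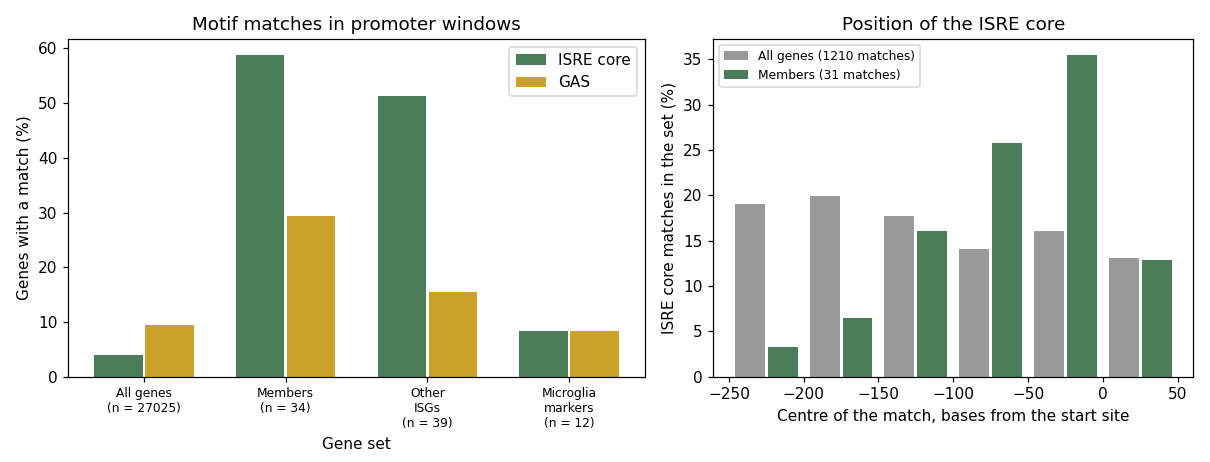
Left, the percentage of genes with at least 1 match to the ISRE core (green) or the GAS letters (yellow) in the promoter window, for all genes, the 34 members with an entry, 39 other interferon-stimulated genes (ISGs) and 12 microglia and macrophage markers. Right, the position of ISRE core matches in bins of 50 bases, as a percentage of the 1210 matches in all promoter entries (grey) and of the 31 matches in members' entries (green); the members' matches gather in the 100 bases before the start site.

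The first comparison, NS-treated rd10 against WT, asks how the degenerating retina differs from the healthy one. Of the 44 interferon-stimulated genes, 41 rose by at least 2-fold (edgeR quasi-likelihood test, adjusted p under 0.05 over all 14644 genes tested, log2 fold change of at least 1), where 9.16% of all genes tested rose by the same rule. Without the fold limit 43 of 44 were higher, beside 31.2% of all genes. In 43 of 44 every NS-treated library lay above every WT library, which held for 33.7% of all genes tested. The exception was Samhd1. The median log2 fold change of the 44 genes was 3.34 and that of all genes tested was 0.005. Summed over the 44 genes, the level was 309.5, 302 and 292 CPM in the WT libraries and 1918, 1340 and 1183 CPM in the NS-treated libraries, 4.91-fold higher on average. All 44 genes passed the filter on low counts, and 7 of them held fewer than 10 counts in every WT library, so that these passed through the rd10 libraries. Oas3, Mx2, Ifi44 and Rsad2 held fewer than 10 counts in some WT libraries and relied on the rd10 libraries as well. Genes this low in WT could enter the test only by being higher in rd10, so their rise is not independent of the filter. With no filter 41 of the 44 were called, beside 2136 of 17980 genes called in either direction. In whole retina, more cells of a type and more RNA per cell cannot be told apart, nor can these be told apart from fewer cells of another type, such as the rods that are lost.

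**Figure D2:**
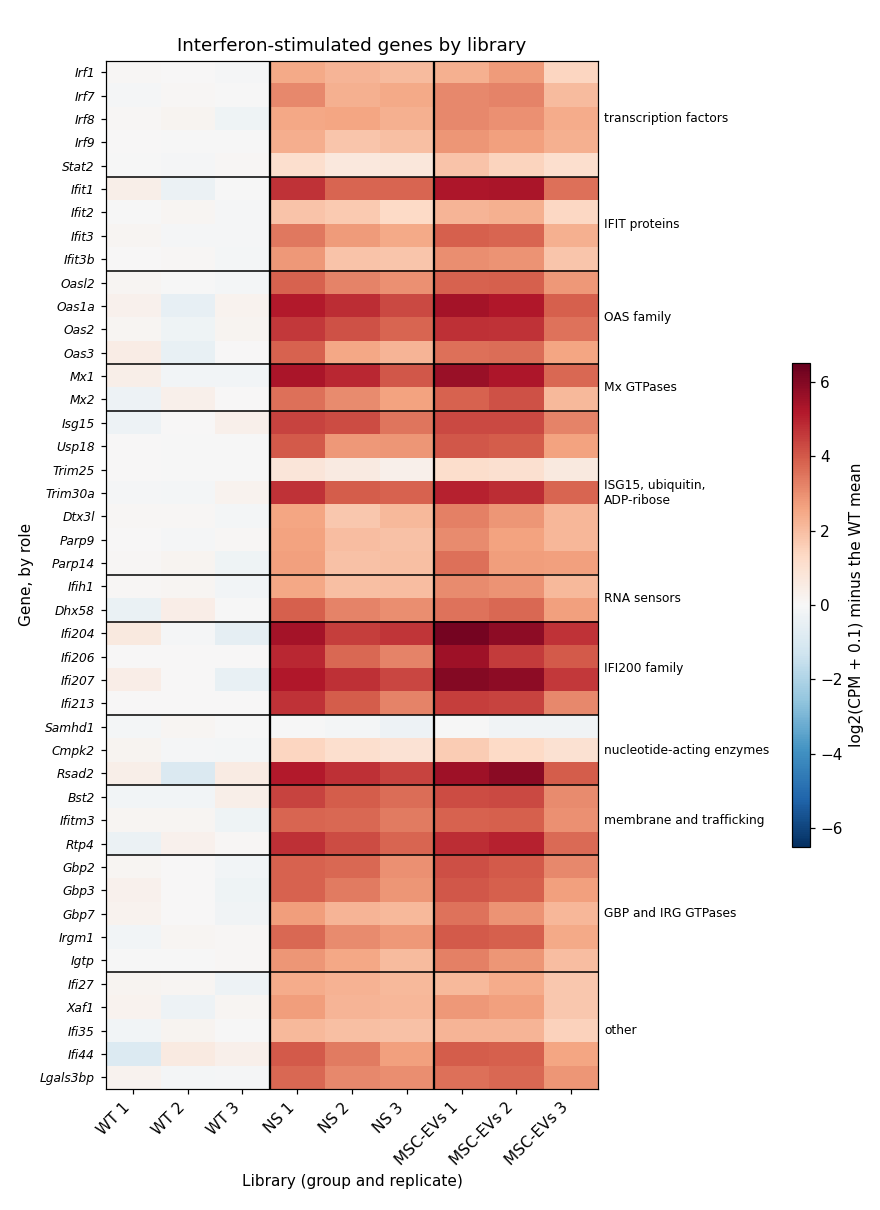
Level of each of the 44 genes (rows, by role) in each of the 9 libraries (columns), as log2(CPM + 0.1) minus the mean of the 3 WT libraries; red is above WT and blue below. All rows but Samhd1 are redder in the 6 rd10 libraries than in WT, NS replicate 1 is the reddest NS-treated column, and MSC-EVs replicate 3 is paler than MSC-EVs replicates 1 and 2 in the rows that are red.

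All 5 transcription factors were higher in NS-treated rd10, 4 of them by at least 2-fold. Irf7, which drives the second wave of interferon production, was at 11.4, 12.7 and 11.7 CPM in WT and at 105, 60.3 and 66.5 CPM in NS-treated rd10. Its log2 fold change was 2.70 ± 0.26 (SE, n = 3 against 3 libraries, edgeR adjusted p = 0.000281), the largest of this group. Stat2, the subunit that gives ISGF3 its activation domain, had the smallest change. It was at 34.99, 33.2 and 37.4 CPM in WT and at 74.6, 55.6 and 58.5 CPM in NS-treated rd10, a log2 change of 0.84 ± 0.11 (edgeR adjusted p = 7.84e-05), which is under the 2-fold limit although the groups did not overlap. Its partner Irf9 rose by 2.07 on the log2 scale, from 16.7 to 17.7 CPM in WT to 61.3 to 88.3 CPM. Irf1, which is induced by both types of interferon, rose by 2.26, and Irf8, a factor that microglia and other myeloid cells need, rose by 2.53 on the same scale. The order of size within the group was Irf7, Irf8, Irf1, Irf9 and Stat2, and all neighbours but Irf9 and Stat2 lay within the sum of their standard errors.

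The 4 IFIT genes, whose proteins bind foreign RNA and hold back its translation, all rose. They lie together on chr19:34550694-34650009 (GRCm38, GENCODE M21). Ifit1, whose promoter with 2 ISRE cores is printed above, was at 3.72, 2.15 and 2.80 CPM in WT and at 76.7, 39.5 and 40.5 CPM in NS-treated rd10. Its log2 fold change was 4.18 ± 0.43 (edgeR adjusted p = 0.000679), and the lowest NS-treated library was far above the highest WT library. Ifit2 had the smallest change, from 11.9, 13.3 and 11.5 CPM in WT to 44.1, 39.9 and 29.9 CPM, a log2 change of 1.63 ± 0.14 (edgeR adjusted p = 4.23e-06). Ifit3 rose by 2.96 and Ifit3b by 2.27 on the log2 scale. Ifit3 and Ifit3b are near copies: 51.2% of the 50-base stretches in the transcripts of Ifit3 also occurred in another gene, mainly Ifit3b, and 45% of those of Ifit3b occurred mainly in Ifit3, so the split of reads between both genes is uncertain.

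The 4 OAS genes encode enzymes or enzyme-like proteins of the 2-5A system, in which a short adenylate made on double-stranded RNA activates the nuclease RNase L; all 4 rose. Oas2 was at 0.0897, 0.0448 and 0.1001 CPM in WT, a total of 5 counts, and at 4.19, 2.99 and 2.29 CPM in NS-treated rd10, with a log2 change of 5.26 ± 0.45 (edgeR adjusted p = 9.56e-07). Oas3 had the smallest change, from 0.449, 0.179 and 0.300 CPM to 5.58, 2.16 and 1.69 CPM (log2 fold change 3.35 ± 0.57, edgeR adjusted p = 0.000637), and its highest NS-treated library was more than the other two together. Oas1a rose by 5.21 and Oasl2, the most abundant of the group, by 3.38 on the log2 scale. Of the 50-base stretches of Oas1a, 57.6% also occurred in another gene, mainly Oas1g, so the counts of these copies are uncertain.

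Transcripts of Mx1 and Mx2, genes of the dynamin-like antiviral GTPase family, both rose, and no protein was measured here. Mx1 held 1 count in the 3 WT libraries together and 234 counts in the 3 NS-treated libraries, a ratio of 210 per unit of depth with a 95% exact counting interval of 37.4 to 8346. It was at 4.33, 3.28 and 1.79 CPM in the NS-treated libraries (edgeR adjusted p = 2.87e-06). Mx2, which GENCODE M21 lists as a polymorphic pseudogene, went from 0.359, 0.627 and 0.501 CPM to 6.79, 4.90 and 3.52 CPM, a log2 change of 3.35 ± 0.32 (edgeR adjusted p = 2.87e-06). Intervals of this kind cover counting error only.

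Of the 7 genes of the ISG15, ubiquitin and ADP-ribose group, 6 rose by at least 2-fold. Isg15, the ubiquitin-like protein after which the process of ISGylation is named, was at 0.494, 0.671 and 0.851 CPM in WT and at 15.6, 14.3 and 8.38 CPM in NS-treated rd10, a log2 change of 4.25 ± 0.30 (edgeR adjusted p = 9.33e-07). Its promoter with 3 overlapping ISRE cores is printed above. Usp18, the protease that removes ISG15 and restrains the type I receptor, rose by 3.41 on the log2 scale. Trim30a, of the tripartite motif family, had the largest change of the group at 4.33 ± 0.29 (edgeR adjusted p = 2.13e-06), from 0.940 to 1.25 CPM in WT to 16.6 to 29.4 CPM. Parp9 and Dtx3l, which act together as an ADP-ribosyl transferase and ubiquitin ligase complex, rose by 2.24 and 2.19 on the log2 scale, and Parp14 by 2.23. These 3 genes are neighbours on chr16:35832874-35972605, and Parp9 and Dtx3l share 458 exonic bases on opposite strands, so without known strand their counts cannot be fully separated. Trim25, the ubiquitin ligase that acts on the RNA sensor RIG-I, had the smallest change, 0.58 ± 0.11 (edgeR adjusted p = 0.00076), from 38.4, 36.3 and 36.8 CPM to 64.1, 55.3 and 46.6 CPM. The groups did not overlap for Trim25, and the change was under the fold limit.

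Both RNA sensors rose. Dhx58 (LGP2) was at 0.718, 1.39 and 0.951 CPM in WT and at 15.9, 10.1 and 8.74 CPM in NS-treated rd10, a log2 change of 3.50 ± 0.30 (edgeR adjusted p = 3.86e-06). Ifih1 (MDA5), the sensor of long double-stranded RNA, went from 5.83, 6.18 and 4.85 CPM to 32.3, 21.95 and 22.9 CPM, a log2 change of 2.19 ± 0.17 (edgeR adjusted p = 1.7e-06). For both genes the lowest NS-treated library was above the highest WT library.

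The 4 genes of the IFI200 family, which bind DNA and lie together on chr1:173468485-173766943, were nearly silent in WT. Ifi206 and Ifi213 held 0 counts in all 3 WT libraries, which allows up to 0.134 to 0.150 CPM per library. Ifi206 was at 2.87, 1.23 and 0.824 CPM in NS-treated rd10, at least 11.8-fold higher than a floor of 3 counts per WT library (edgeR adjusted p = 0.000585). Ifi213 was at 2.53, 1.42 and 0.824 CPM, at least 11.4-fold higher than the same floor (edgeR adjusted p = 0.000194). Ifi207 held 3 counts in WT and 282 in NS-treated rd10, a ratio of 84.5 with a 95% exact counting interval of 28.6 to 412. Ifi204, the member of the family with the most counts, went from 0.359, 0.179 and 0.1001 CPM to 12.6, 6.57 and 7.41 CPM, a log2 change of 5.33 ± 0.41 (edgeR adjusted p = 1.64e-06). The share of 50-base stretches that also occurred in another gene was 25.6% for Ifi206, 20% for Ifi204, 15.6% for Ifi213 and 7.3% for Ifi207, and all of the genes named as sharing most belong to the same family. The median log2 fold change of the 4 genes was 7.21 as fitted and 4.44 with Ifi206 and Ifi213 at their lower bounds.

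The 3 enzymes that act on nucleotides did not move alike. Rsad2 (viperin), which makes a chain-terminating nucleotide, was at 1.08, 0.358 and 1.201 CPM in WT and at 31.6, 24.1 and 18.7 CPM in NS-treated rd10, a log2 change of 4.83 ± 0.35 (edgeR adjusted p = 1.11e-05). Its neighbour on chromosome 12, the nucleotide kinase Cmpk2, was at 15.6 to 19.3 CPM in WT and rose by 1.14 on the log2 scale. That rise was 0.99, under the fold limit, without NS replicate 1. Samhd1, which breaks down deoxynucleotides, was at 39.5, 45.9 and 42.4 CPM in WT and at 41.2, 39.5 and 34.3 CPM in NS-treated rd10, so the groups overlapped. Its log2 fold change was -0.15 ± 0.09 (edgeR adjusted p = 0.143), and it did not pass the test. With limma on log2(FPKM + 1) the value was 0.10 (adjusted p = 0.349), the opposite direction, and the cause was not tested.

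The 3 membrane and trafficking genes rose by similar amounts. Bst2 (tetherin), which holds budding virus at the cell surface, rose by 4.11 on the log2 scale. Ifitm3, which blocks fusion of virus with endosomes, was at 6.33, 6.27 and 4.75 CPM in WT and at 79.2, 77.4 and 60.4 CPM in NS-treated rd10, a log2 change of 3.64 ± 0.14 (edgeR adjusted p = 1.39e-08). Rtp4, a receptor transporter protein, had the largest change of the group, from 0.673, 1.12 and 0.951 CPM to 26.6, 18.8 and 13.6 CPM (log2 fold change 4.43 ± 0.32, edgeR adjusted p = 4.78e-06). Of the exonic bases of Rtp4, 13.9% also belong to a gene model on the same strand.

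All 5 GTPases of the GBP and IRG families, which attack the vacuoles of intracellular pathogens, rose. Gbp2 was at 4.44, 4.12 and 3.60 CPM in WT and at 59.1, 54.7 and 32.1 CPM in NS-treated rd10, a log2 change of 3.58 ± 0.29 (edgeR adjusted p = 6.61e-05). Gbp7 had the smallest change, from 5.38, 4.57 and 3.85 CPM to 30.4, 21.6 and 19.9 CPM (log2 fold change 2.38 ± 0.19, edgeR adjusted p = 2.38e-06). Gbp3, Irgm1 and Igtp rose by 3.43, 3.29 and 2.56 on the log2 scale. The GBP genes lie side by side on chr3:142530342-142638008, where each of the 3 genes had an ISRE core in at least 1 promoter window. Irgm1 and Igtp lie apart from each other on chromosome 11, and their promoter windows held one as well.

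The 5 remaining genes also rose. Ifi44 had the largest change, from 0.224, 0.806 and 0.651 CPM to 9.60, 6.13 and 3.71 CPM (log2 fold change 3.54 ± 0.47, edgeR adjusted p = 0.000173). Ifi35 had the smallest, from 2.33, 2.91 and 2.60 CPM to 11.7, 10.2 and 10.1 CPM (log2 fold change 2.03 ± 0.15, edgeR adjusted p = 2.94e-07). Lgals3bp, a secreted glycoprotein, rose by 3.34, Xaf1, which binds the apoptosis inhibitor XIAP, by 2.42, and the mitochondrial protein gene Ifi27 by 2.29 on the log2 scale. None of these 5 genes had an ISRE core in its window where an entry was given.

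Across roles, genes rose with and without a match to the ISRE core in the promoter window. Only the exact letters within that window were searched, so the lack of a match does not show that an element is absent. The 20 genes with an ISRE core had a median log2 fold change of 3.61, or 3.53 with the genes at 0 in WT at their bounds, and 19 of them rose by at least 2-fold. The 14 genes with an entry and no core had a median of 2.23, and 12 rose by at least 2-fold. The 10 genes with no entry had a median of 3.46, and all 10 rose. These medians are descriptions without a test.

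Compared per transcript length, as fragments per kilobase of transcript scaled to library depth (FPKM), the order of the genes in NS-treated rd10 was led by Ifitm3 at 111 ± 15.4 FPKM (SD, n = 3), followed by Lgals3bp at 75.2 ± 17.1, Oasl2 at 68.6 ± 20.4 and Ifit3 at 59.9 ± 21.2 FPKM. The last 3 of these lay within their spread of each other. At the low end, Ifi206, Ifi213, Oas3 and Oas2 had means between 0.56 and 0.85 FPKM, which also lay within their spread. In WT the order was led by Samhd1 at 11.2 ± 0.90 FPKM, followed by Ifitm3 at 7.89 ± 1.25 and Stat2 at 7.41 ± 0.40 FPKM. Samhd1 thus went from rank 1 of 44 in WT to rank 21 in NS-treated rd10 where it was at 12.02 ± 1.08 FPKM, within its spread of the WT level.

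Other genes of the interferon pathway were read from lists that exclude the members. Of 103 genes listed, 81 passed the filter, 63 of these rose by at least 2-fold in NS-treated rd10 (beside the 9.16% of all genes given above), none fell by as much, and their median log2 fold change was 2.26. None of the 21 interferon genes themselves passed the filter. Of these, 13 held 0 counts in all 9 libraries, and no interferon gene held more than 10 counts in any library. Ifnb1, the interferon beta gene, held 0, 0 and 0 counts in WT, 0, 1 and 0 in NS-treated rd10, and 3, 7 and 7 in MSC-EVs-treated rd10. From 17 counts against 1, the MSC-EVs to NS ratio per unit of depth was 10.9, with a 95% exact counting interval of 1.71 to 457. That interval pools the reads of each group and covers counting error only, not the spread between libraries. No test over libraries was made, and no other interferon gene was given this ratio. Of the 17 counts, 7 came from MSC-EVs replicate 3, the deepest library. Ifng, the type II interferon gene, held 1 count in 1 WT library and 0 in the other libraries.

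Of the 9 receptor and kinase genes listed, 3 rose by at least 2-fold. Ifnar1, the first chain of the type I receptor, was at 66.9, 65.0 and 59.6 CPM in WT and at 66.1, 60.3 and 64.3 CPM in NS-treated rd10 (log2 fold change -0.01 ± 0.07), so the groups overlapped. The second chain, Ifnar2, went from 10.4, 10.2 and 10.3 CPM to 21.1, 22.9 and 19.8 CPM, a log2 change of 1.04 ± 0.09 (edgeR adjusted p = 1.44e-06). Ifnlr1 and Il10rb, which form the receptor of type III interferon, rose by 3.21 and 1.03 on the log2 scale, with Ifnlr1 at no more than 2.21 CPM in any NS-treated library. Ifngr2 was higher by 0.46 on the log2 scale (edgeR adjusted p = 0.000251), under the fold limit, and Ifngr1 had a log2 fold change of -0.04 and did not pass the test. Of the kinases, Jak1 and Tyk2 did not pass the test, and Jak2 was higher by 0.24 (edgeR adjusted p = 0.00727).

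Outside the set, Socs3, a feedback inhibitor of JAK-STAT signaling, rose by 4.18 ± 0.12 on the log2 scale (edgeR adjusted p = 2.69e-10), and the exonuclease gene Isg20 by 2.11 ± 0.34 (edgeR adjusted p = 0.000171). Of 15 sensors, adaptors and kinases upstream of interferon, 10 rose, led by the nucleic acid sensor Zbp1 at 4.69 ± 0.64 (edgeR adjusted p = 0.000281) and the endosomal RNA sensor Tlr7 at 4.01 ± 0.29 (edgeR adjusted p = 2.38e-07). The same list held 2 genes that were lower at an adjusted p under 0.05, neither by the fold limit. Of 50 other interferon-stimulated genes, 49 passed the filter and 46 rose, with a median of 2.84. The largest fitted changes were those of Oas1g and of the chemokine gene Cxcl9. Oas1g held 1 count in each WT library and 181 counts in NS-treated rd10, a ratio of 54.3 with a 95% exact counting interval of 18.3 to 266. Cxcl9 held 1 count in WT and 72 in NS-treated rd10, a ratio of 64.8 with an interval of 11.3 to 2592. Ifi44l held 0 counts in every library.

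Marker genes of other cell types moved in the same comparison. Of 18 microglia and macrophage markers, 16 rose by at least 2-fold, with a median log2 fold change of 3.15, and their summed level was 87.1 to 95.2 CPM in WT and 519 to 634 CPM in NS-treated rd10. No marker of that list was at 0 in any library. The 10 markers of infiltrating monocytes and neutrophils summed to 0.0501 to 0.269 CPM in WT and 4.94 to 14.9 CPM in NS-treated rd10, and 3 of them were at 0 in each NS-treated library. Only Ccr2, Ly6c2, Plac8 and Chil3 passed the filter, and these 4 rose. The other 6 held no more than 9 counts in any NS-treated library. Among them, Ly6g held 2, 2 and 0 counts in WT and 0 with NS, and Elane held 0 counts in every library. The 12 markers of T and NK lymphocytes summed to 0.895 to 1.71 CPM in WT and 4.66 to 8.85 CPM, with 6 to 8 of the 12 at 0 counts in a WT library and 0 to 2 in an NS-treated one. Only 1 of the 12, Cd8a, passed the filter, and it rose by 1.23 ± 0.30 on the log2 scale. Of 8 Müller glia markers, 7 were higher at an adjusted p under 0.05 (beside 31.2% of all genes tested), 4 of them by at least 2-fold, with sums of 4085 to 4375 CPM in WT and 6059 to 7214 CPM in NS-treated rd10. Apoe had the largest gain in CPM, from a mean of 476 to 2052. Glul, the most abundant of the 8, had a log2 fold change of -0.03 and did not pass the test. Of 11 endothelial and pericyte markers, 9 were higher and none by 2-fold, with sums of 431 to 459 CPM and 692 to 746 CPM. Of 7 pigment epithelium markers 2 rose, and the sums overlapped, at 53.7 to 98.5 CPM and 51.8 to 214 CPM. No marker of these 3 lists was at 0 in any library. The part of these cells in the rise of the interferon-stimulated genes was not tested.

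The third group, MSC-EVs-treated rd10, was first set beside WT. The same WT libraries serve both comparisons with WT, so their values are given side by side and not as separate evidence. Y-linked genes were high in MSC-EVs replicates 1 and 2 and in no WT library. Sex and the vesicles therefore add to the differences from WT that cannot be told apart here. Against WT, 42 of the 44 genes rose by at least 2-fold with MSC-EVs, beside 9.0% of all 14623 genes tested, and in 43 of 44 every MSC-EVs-treated library lay above every WT library, beside 31.9% of all genes. The median log2 fold change was 3.55, or 3.52 with Ifi206 and Ifi213 at their bounds, and that of all genes tested was -0.004. The gene added to the 41 was Stat2, at 126, 94.97 and 75.4 CPM with MSC-EVs and a log2 fold change against WT of 1.49 ± 0.19 (edgeR adjusted p = 0.000893). Trim25, at 83.0, 75.5 and 58.4 CPM, had 0.96 ± 0.12 (edgeR adjusted p = 0.000258), just under the fold limit, and 1.10 without MSC-EVs replicate 3. Samhd1, at 41.2, 36.5 and 36.3 CPM, had -0.16 ± 0.08 (edgeR adjusted p = 0.124) and did not pass the test.

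Every role group kept at least 1 gene that rose by at least 2-fold with MSC-EVs, and further values by role follow. Stat2, Trim25 and Samhd1, given above, had the smallest change of their groups. Among the transcription factors the largest was Irf8 at 2.93 ± 0.23 (edgeR adjusted p = 7.14e-06), followed by Irf7 at 2.89 ± 0.37 (edgeR adjusted p = 0.00196). Ifit1 had 4.91 ± 0.68 (edgeR adjusted p = 0.00339) and Ifit2 had 2.004 ± 0.287 (edgeR adjusted p = 0.00194). In the OAS family, Oas2 had 5.49 ± 0.56 and Oasl2 had 3.61 ± 0.36 on the log2 scale. Isg15 had 4.16 ± 0.37 (edgeR adjusted p = 5.6e-05) and Trim30a 4.73 ± 0.44 (edgeR adjusted p = 0.000315). Among the sensors, Dhx58 had 3.45 ± 0.36 and Ifih1 2.77 ± 0.29. Ifi206 was at least 19.6-fold and Ifi213 at least 11.7-fold higher than the floor of 3 counts per WT library. Ifi204 had 6.10 ± 0.65 on the log2 scale, and Ifi207 held 598 counts, a ratio to WT of 115 with a 95% exact counting interval of 39.3 to 561. Mx1 held 318 counts, a ratio to WT of 184 with an interval of 32.8 to 7288, and Mx2 had 3.77 ± 0.66 on the log2 scale. Rsad2 had 5.32 ± 0.79, Rtp4 4.70 ± 0.49 and Ifitm3 3.63 ± 0.33, Gbp2 3.85 ± 0.34 and Igtp 2.83 ± 0.37, and in the remaining group Ifi44 3.66 ± 0.55 and Ifi35 2.05 ± 0.23.

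**Figure D3:**
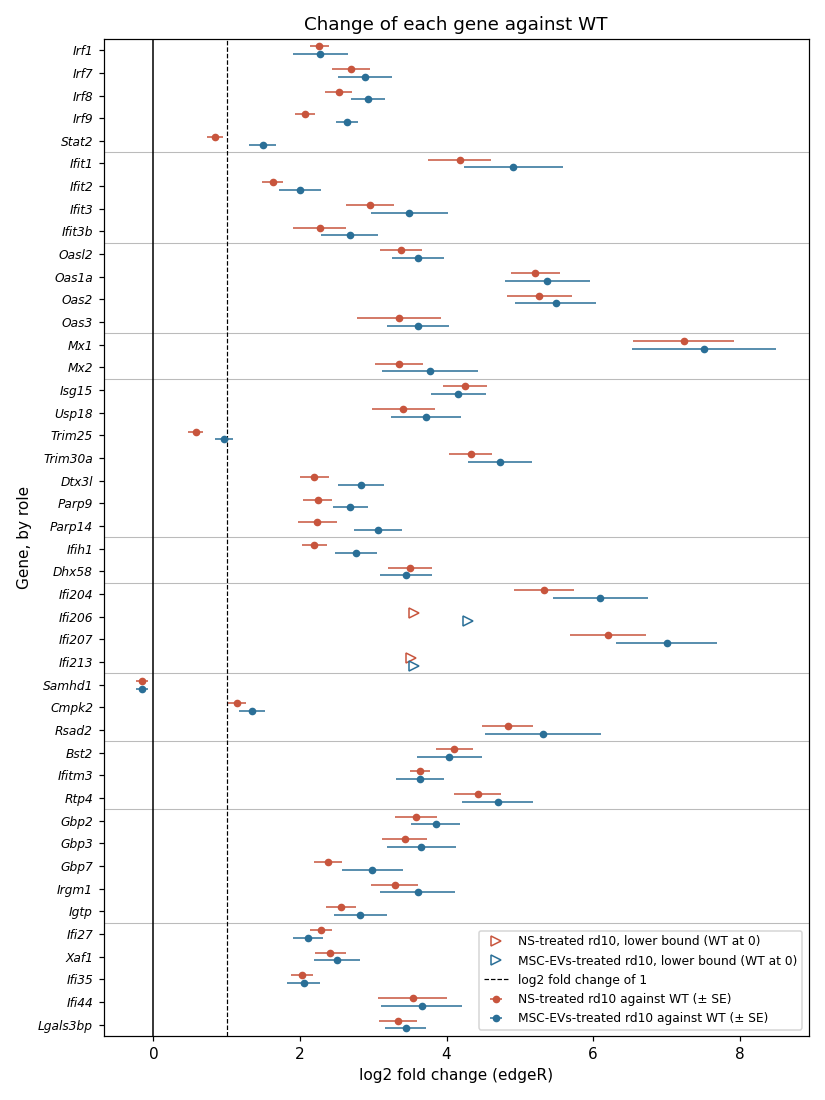
Log2 fold change of each gene against WT (x axis) in NS-treated rd10 (red) and MSC-EVs-treated rd10 (blue), by role; points are edgeR estimates with their SE, and open triangles are lower bounds for Ifi206 and Ifi213, which held 0 counts in WT. The estimates of Mx1 and Ifi207 rest on 1 and 3 WT counts, only Samhd1 lies below 0, and for most genes the SE bars of both groups overlap.

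The remaining comparison, MSC-EVs-treated against NS-treated rd10, asks how the treated retina differed. Y-linked genes were high in MSC-EVs replicates 1 and 2 and in no NS-treated library. For those replicates, sex and treatment cannot be told apart. Of the 44 genes, 0 changed in either direction by edgeR's rule, where 0.061% of all 14765 genes tested did. At an unadjusted p under 0.05 there were 3 of 44, namely Stat2, Irf9 and Trim25, beside 20.2% of all genes tested. The DESeq2 Wald test and limma on log2(FPKM + 1) called 0 of the 44 as well, with 6 and 4 at an unadjusted p under 0.05. The share of all genes at that limit was not computed for DESeq2 and limma, so the 6 and 4 cannot be read as an excess or a lack. The median log2 fold change of the 44 genes was 0.27 and that of all genes was -0.002, and 37 genes had a positive and 7 a negative value, from -0.19 (Ifi27) to 0.83 (Parp14). For 43 of the 44 genes the groups overlapped. The exception was Stat2, where every MSC-EVs-treated library lay above every NS-treated one, an arrangement found for 12.7% of all genes tested.

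The 6 genes with the smallest unadjusted p all had higher means with MSC-EVs, and none passed the test. Stat2 was at 126, 94.97 and 75.4 CPM beside 74.6, 55.6 and 58.5 CPM with NS, which gave a log2 difference of 0.65 ± 0.21 (edgeR adjusted p = 0.164). Irf9, a subunit of ISGF3, was at 127, 109 and 84.7 CPM beside 88.3, 61.3 and 66.8 CPM, a log2 change of 0.57 ± 0.19 (edgeR adjusted p = 0.174). Only MSC-EVs replicate 3 lay below the highest NS-treated library for Irf9. Trim25 had 0.38 ± 0.16 (edgeR adjusted p = 0.226), Irf8 had 0.40 ± 0.19 (edgeR adjusted p = 0.27) and Ifih1 had 0.57 ± 0.28 (edgeR adjusted p = 0.326). Parp14, at 84.7, 45.2 and 44.4 CPM beside 44.8, 25.9 and 27.0 CPM, had 0.83 ± 0.36 (edgeR adjusted p = 0.282), and 1 MSC-EVs-treated library was nearly as high as the other two together. Among the other pathway genes tested, 1 of 81 had an adjusted p under 0.05, beside 1.16% of all genes tested. It was the phosphatase gene Ptpn2, named here after its values were seen, which was higher by 0.54 with MSC-EVs (edgeR adjusted p = 0.0425) and under the fold limit.

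The libraries within each treatment lay far apart. Summed over the 44 genes, the level was 2320, 2169 and 1152 CPM in MSC-EVs replicates 1 to 3, so the highest was 2.01-fold the lowest, beside 1.62-fold in NS-treated rd10 and 1.06-fold in WT. Every one of the 44 genes was lower in MSC-EVs replicate 3 than in replicates 1 and 2, where 35% of all genes tested had this order. Irf7 was at 105, 111 and 49.4 CPM, Isg15 at 14.5, 14.6 and 7.07 CPM, and Ifitm3 at 84.0, 87.1 and 45.1 CPM. For 27 of 44 genes MSC-EVs replicate 3 was the lowest of the 6 rd10 libraries, beside 20% of all genes. For 28 of 44 both MSC-EVs replicates 1 and 2 were above all 3 NS-treated libraries, beside 18.8% of all genes. In NS-treated rd10, replicate 1 was the highest for 43 of 44 genes, beside 34.1% of all genes, with Irf8 as the exception.

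The size of the treatment difference varied with the libraries kept. Its median over the 44 genes was positive with any 1 library left out and negative with MSC-EVs replicate 3 alone. The median log2 fold change was 0.09 without MSC-EVs replicate 1, 0.11 without MSC-EVs replicate 2, 0.51 without NS replicate 1 and 0.10 without NS replicate 3. All 44 genes were lower in MSC-EVs replicate 3 than in replicates 1 and 2. The direction in which the median moved without it or with it alone was therefore fixed beforehand, and the counts below are no separate evidence. Without MSC-EVs replicate 3 the median log2 fold change was 0.57, with 43 genes positive and 17 of 44 at an unadjusted p under 0.05, beside 18.7% of all genes in that fit. With MSC-EVs replicate 3 alone, the treated library whose Y-linked level of 0.358 CPM lay in the range of the NS-treated libraries, the median was -0.52, with 40 genes negative. In that fit the lone sample is assumed to vary like the NS-treated group, so only effect sizes are given for it. The fit without MSC-EVs replicate 3 called 0 of the 44 genes (lowest edgeR adjusted p of 0.0733). With replicate 3 alone the 4 positive genes were Irf9, Stat2, Trim25 and Parp14, and without it the 1 negative gene was Ifi27 (-0.03).

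**Figure D4:**
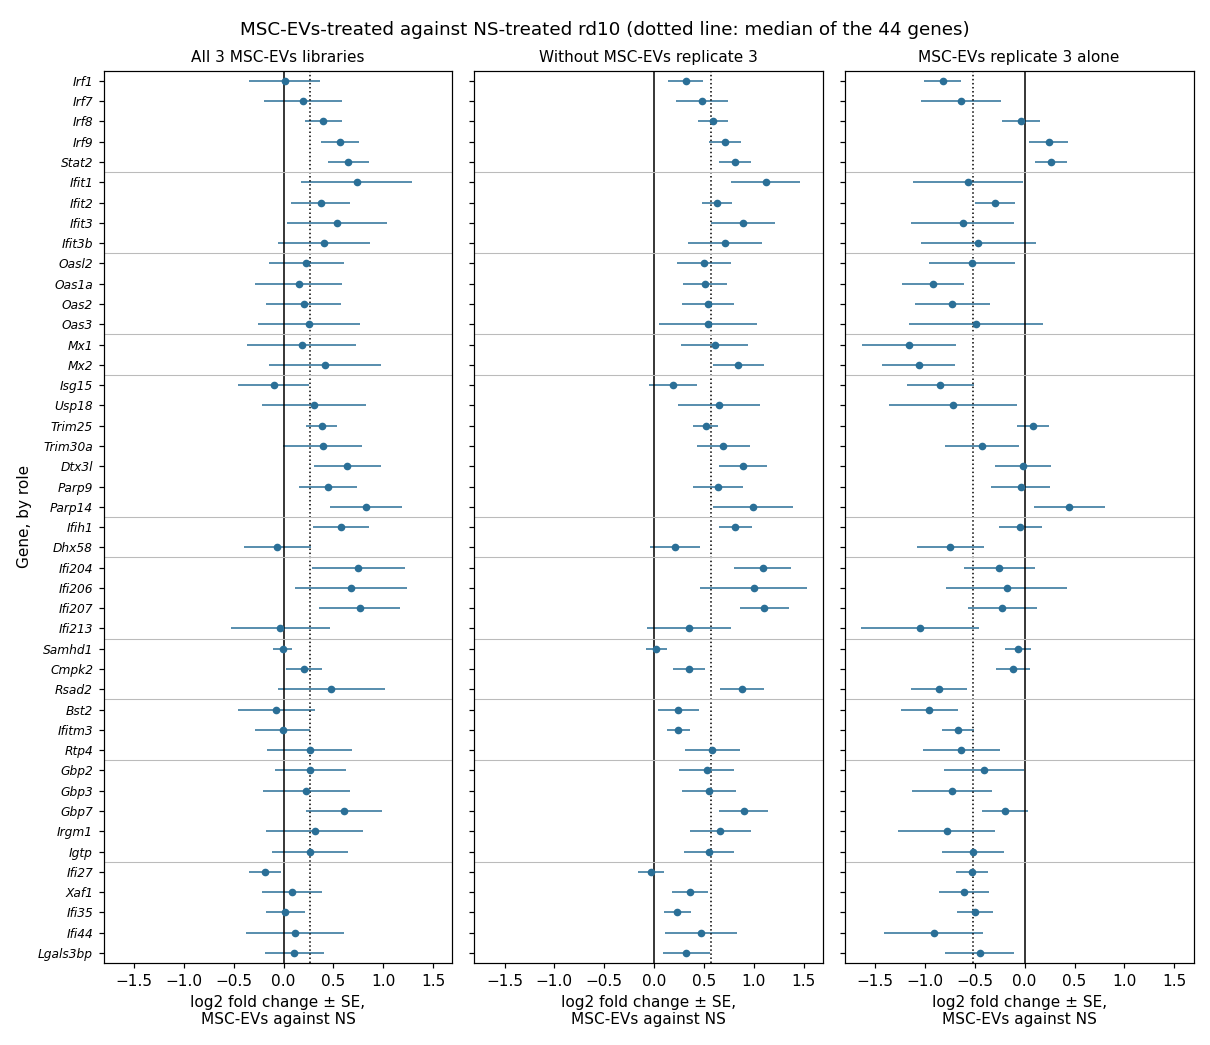
Log2 fold change with SE of each gene between MSC-EVs-treated and NS-treated rd10 with all 3 MSC-EVs-treated libraries (left), without replicate 3 (middle) and with replicate 3 alone (right); the dotted line is the median of the 44 genes. The median goes from 0.27 to 0.57 and to -0.52, and in the right panel only Irf9, Stat2, Trim25 and Parp14 lie above 0.

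Immune cell markers differed between the same libraries, and 0 genes of these lists were called between MSC-EVs and NS. The 18 microglia and macrophage markers summed to 621, 737 and 418 CPM in MSC-EVs replicates 1 to 3, and the 10 monocyte and neutrophil markers to 20.1, 15.8 and 2.66 CPM. In both lists replicate 3 was the lowest of the 6 rd10 libraries, and in NS-treated rd10 both lists were highest in replicate 1. The T and NK lymphocyte markers summed to 8.86, 10.5 and 3.13 CPM with MSC-EVs and were also lowest in replicate 3. The rod markers summed to 15180, 19420 and 21250 CPM and were highest in replicate 3, which was also the deepest library. The part of these cells, of depth and of the difference in Y-linked counts in the spread of the interferon-stimulated genes was not tested.

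**Figure D5:**
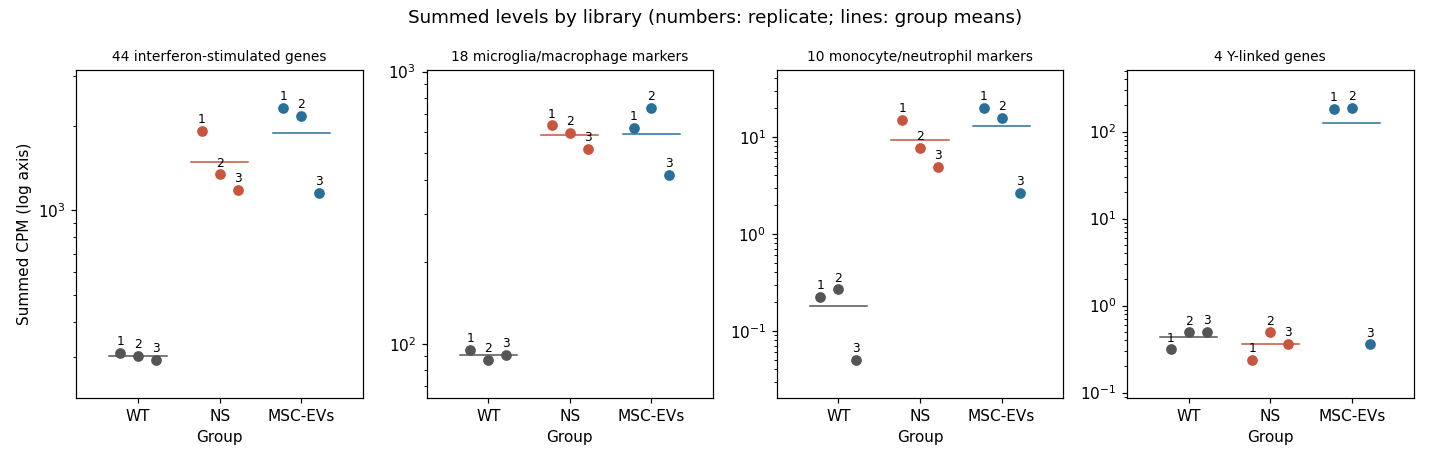
Summed CPM (log axis) of the 44 interferon-stimulated genes, of microglia and macrophage markers, of monocyte and neutrophil markers and of Y-linked genes in each library; numbers are replicates and lines are group means. MSC-EVs replicate 3 is the lowest rd10 library in the first 3 panels, and MSC-EVs replicates 1 and 2 alone stand out in the last.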

How the data were processed

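RNA-seq of poly(A)-enriched RNA from whole retina was measured in 9 libraries, 3 per group, with 19491717 to 62532343 counts per library. The authors deposited 1 table with estimated counts and FPKM values for each gene and library, and all per-library columns were used. The submitters' processing notes name fastp, Bowtie2, HISAT2, StringTie 1.3.1 and RSEM. The genome build and annotation behind the table are not given in the sources used here. Positions were taken from GENCODE M21 (GRCm38), where all 44 member identifiers were found, and promoters from RefSeq (GRCm38.p6).

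The deposited estimated counts were planned for as raw counts, and were rounded to whole numbers before use. Genes were filtered with filterByExpr, scaled by TMM and tested in each pair of groups (6 libraries) with edgeR 4.0.16 in R 4.3.3, using the quasi-likelihood F test with robust dispersion and Benjamini-Hochberg adjustment over all genes tested. A gene was called at an adjusted p under 0.05 and a log2 fold change of at least 1 in size. SE is the log2 fold change divided by the square root of F. Levels are TMM-scaled CPM over the 9 libraries, and FPKM was used to compare genes. A gene with 0 counts in WT was set against 3 counts per library, and ratios resting on 1 to 3 WT counts carry exact 95% intervals.

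The members, the pathway and marker lists and the tests were chosen with earlier results of these data known. Any member could be named, with full statistics for the largest and smallest change of each role and for Irf7, Stat2, Isg15 and Ifitm3. For MSC-EVs against NS the 6 genes with the smallest unadjusted p were named, and in other pathway lists the interferon and receptor genes and the 2 largest changes. Results of 1 other listed pathway gene are not reported here, and counts over the pathway lists include it. Alternatives were DESeq2 1.42.0, limma 3.58.1 on log2(FPKM + 1), other scaling factors and filters, a joint fit of all libraries, no fold limit, a replicate block and leaving out each library. The fits were tested on simulated data. Sharing between genes was counted over stretches of 50 bases of transcript sequence.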

Additional observations from a re-analysis of the deposited data

How the results depend on the processing

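With any 1 library left out, 40 to 41 of the 44 genes were called above WT with NS and 42 to 43 with MSC-EVs, 0 to 0 were called between MSC-EVs and NS, and 60 to 63 other pathway genes called higher with NS. The median log2 fold change of the 44 genes was 2.93 to 3.52 for NS against WT and 0.09 to 0.57 for MSC-EVs against NS. With MSC-EVs replicate 3 alone the latter was -0.52, and Irf8 (-0.038) and Ifih1 (-0.045, both for MSC-EVs against NS) turned negative. With limma on log2(FPKM + 1) the median for NS against WT was 2.07, the pseudocount lowering the change of low genes, with 37 and 38 of 44 genes called against WT and 46 other pathway genes, and Samhd1 turned positive, at 0.10 with NS and 0.15 with MSC-EVs; the cause was not tested. Limma did not call Oas2, Oas3, Ifi206 and Ifi213 in either comparison with WT. DESeq2 called 41 and 42 genes against WT. Between MSC-EVs and NS, edgeR called 9 of all genes, DESeq2 33, a joint fit of all libraries 38, and fits without 1 library 0 to 82, and in each of these 0 of the 44.

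The labels do not say whether the replicate numbers pair the samples. Between NS and MSC-EVs the correlation of the deviations of same-numbered libraries was 0.086, 0.199 and 0.268. In the other pairs it was between -0.074 and 0.07. Differently numbered libraries were not compared, so these values cannot decide whether samples were paired. A fit with the replicate number as a block called 41, 42 and 0 of the 44 genes for NS against WT, MSC-EVs against WT and MSC-EVs against NS, and 63 other pathway genes. Its medians were 3.30 and 0.26, and it called 21 of all genes between MSC-EVs and NS. At an unadjusted p under 0.05 the block fit held 15 of the 44 genes in that comparison, beside 3 in the fit without it. The share of all genes at that limit in the block fit was not computed, so the 15 cannot be read as an excess over all genes. Groups of 3 were too small to test a library as an outlier.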
